A study of Homo sapiens with 6 samples.

Results

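The zinc finger genes described here carry a name that starts with ZNF and a number, and reached a mean of at least 5 TPM over 6 libraries. TPM is a transcript's length-corrected share of its library, scaled to a fixed total. TPM were summed over the transcripts of each gene, and 258 gene IDs with 253 symbols met the rule, of 63677 genes in all. The genes were chosen by their mean level over all libraries, so their being expressed is no finding, while the difference between the groups played no part in the choice. At any level 601 ZNF-named gene IDs were present, and 439 of them had a mean of at least 1 TPM. All 258 genes therefore passed the minimum of 1 TPM for testing, which was applied to the mean over all libraries and not to either group. Just inside the level were ZNF688 at 5.03 TPM and ZNF543 at 5.001 TPM, and just outside it were ZNF35 at 4.99 TPM and ZNF337 at 4.98 TPM.

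The libraries come from KMS27, a human multiple myeloma cell line of malignant plasma cells. In 3 libraries the cells overexpressed HA-TAZ, an epitope-tagged form of TAZ, the co-activator at the end of the Hippo pathway that works with TEAD transcription factors and is encoded by WWTR1. The other 3 libraries were labelled wild type, with HA in their sample names and scr in the columns of the deposited table. They are called control a, b and c here, and whether they carried an empty or scrambled construct is not stated in the labels. Both groups are the same line, no treatment other than HA-TAZ is named, and no label says whether libraries came from separate cultures, so each p-value measures only the spread between these libraries.

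Zinc finger proteins of this family read DNA, and some bind RNA, with short modules in which paired cysteines and histidines hold a zinc ion. The largest group joins an array of such fingers to a KRAB domain, which recruits the co-repressor TRIM28 and, through it, SETDB1 and heterochromatin proteins to silence transposable elements and other targets. Many KRAB genes lie in clusters on chromosome 19 that grew by gene duplication. Other members have a SCAN domain for pairing with each other, or work in splicing, ribosome quality control or mitosis.

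The KRAB core is shown for the 5 KRAB genes whose level differed between the groups and for ZNF10, whose KRAB domain is the one used in many engineered repressors. The runs are coding sequence of GENCODE release 29, 54 bases each, with the tryptophan, tyrosine and methionine codons of the search pattern in capitals.
ZNF267: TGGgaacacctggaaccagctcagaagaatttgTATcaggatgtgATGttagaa
ZNF268: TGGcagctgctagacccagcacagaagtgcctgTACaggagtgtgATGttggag
ZNF140: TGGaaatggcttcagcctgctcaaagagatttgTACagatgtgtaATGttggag
ZNF689: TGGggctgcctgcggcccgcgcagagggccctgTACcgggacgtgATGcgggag
ZNF791: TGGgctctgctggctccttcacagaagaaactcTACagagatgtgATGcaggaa
ZNF10: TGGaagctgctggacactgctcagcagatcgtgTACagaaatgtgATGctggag
Against ZNF267, the other 5 cores were identical at 61.1% to 66.7% of the bases. ZNF10 itself was found only with a wider pattern, which raised the number of matches from 110 to 112. The wider pattern may also miss divergent KRAB domains. In the classes below, ZNF10 is counted among the genes without a match.

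Fingers are shown for ZNF410 and ZNF593, which differ in how they are built: ZNF410 has a compact array of 5 fingers and ZNF593 has 1 finger. Capitals mark the cysteine and histidine codons that the search pattern matched, again from GENCODE release 29. Where the spacing allowed another histidine, as in ZNF410 finger 5, the pattern took the later one.
ZNF410 finger 1: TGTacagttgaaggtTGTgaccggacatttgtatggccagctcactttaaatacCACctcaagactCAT
ZNF410 finger 2: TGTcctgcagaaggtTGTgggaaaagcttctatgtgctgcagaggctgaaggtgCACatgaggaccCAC
ZNF410 finger 3: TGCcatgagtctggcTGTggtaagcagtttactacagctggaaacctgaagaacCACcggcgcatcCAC
ZNF410 finger 4: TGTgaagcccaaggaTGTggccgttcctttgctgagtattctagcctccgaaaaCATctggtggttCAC
ZNF410 finger 5: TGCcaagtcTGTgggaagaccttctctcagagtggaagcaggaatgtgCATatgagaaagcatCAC
ZNF593 finger 1: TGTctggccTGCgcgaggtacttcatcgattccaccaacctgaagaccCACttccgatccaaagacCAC
Among the 254 genes with a coding sequence, 110 matched the KRAB pattern, 144 did not and 11 matched the SCAN pattern. The median gene had 10 fingers, KRAB genes 11.5 and the others 8, and ZNF91 had the most, 31. A gene without a match to the pattern may still hold a divergent KRAB domain. The other 4 genes, ZNF29P, ZNF767, ZNF252P and ZNF271, had no coding sequence in the annotation. By GENCODE release 29, 104 of the genes lie on chromosome 19, 22 on chromosome 7 and 17 on chromosome 16.

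The transgene showed in every library: WWTR1 measured 293, 306 and 293 TPM with HA-TAZ, and 2.69, 2.22 and 1.69 TPM in controls a, b and c. TPM are shares of a library, and a typical gene had a smaller share in the HA-TAZ libraries: the median-of-ratios factors were 0.866, 0.967 and 0.890 there and 1.21, 1.09 and 1.06 in the controls. Levels below are TPM divided by these factors (scaled TPM) unless said otherwise. Plasma cell genes such as SDC1, XBP1 and IRF4 were present in every library, and the B and T cell markers MS4A1, PAX5, CD2, CD3D and CD3E reached at most 0.496 TPM in any. Of the 15 markers of other cell types reported here, 12 stayed below 1 TPM in every library, CSF1R and COL1A1 reached 1.97 and 2.12 TPM, and the B cell regulator BACH2 ran from 5.78 to 14.03 TPM. CD38 fell by 0.61 on the log2 scale, BACH2 fell by 0.64 and SLAMF7 rose by 0.95 (limma, Benjamini-Hochberg adjusted p = 0.023, 0.015 and 0.013). Whether the change in these markers bears on the zinc finger genes was not tested. In bulk RNA, a change in the number of cells of a kind and a change in RNA per cell cannot be told apart.

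The zinc finger genes were mostly expressed at modest levels. Mean TPM ran from 5.001, just above the chosen minimum, to 179, and 124 genes lay below 10 TPM. The median was 10.7, beside 16.8 over all genes of at least 5 TPM. ZNF207, a spindle and splicing protein, was the most abundant, with 156, 172 and 149 TPM in HA-TAZ and 225, 191 and 182 TPM in the controls. ZNF638, an RNA-binding nuclear protein that takes part in silencing foreign DNA, followed at a mean of 112 TPM, then ZNF706 at 83.1, ZNF121 at 54.0 and ZNF217 at 51.5 TPM. ZNF217 is an oncogene product of the CtBP and CoREST repressor complexes. None of these 5 passed the threshold in scaled TPM. For ZNF207 the scaled levels of 180, 178 and 168 in HA-TAZ overlapped the 186, 175 and 172 of the controls, a log2 difference of -0.02 ± 0.05 (SE). ZNF638 had scaled levels of 99.8, 112 and 95.3 in HA-TAZ and 118, 116 and 115 in the controls, which did not overlap, and its difference was -0.19 ± 0.07 (limma adjusted p = 0.12).

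All ZNF genes together took 0.344%, 0.383% and 0.345% of library TPM in HA-TAZ, and 0.4599%, 0.414% and 0.399% in controls a, b and c. Every HA-TAZ library was below every control on this scale. After scaling the order turned: the summed level was 3977, 3958 and 3873 in HA-TAZ and 3803, 3801 and 3769 in the controls. Summed scaled TPM was thus 1.04 times the control mean in HA-TAZ, while summed TPM as deposited was 0.842 times it. Replicates were closer to each other for these genes than for the whole table, with a median within-group SD of 0.088 on the log2 scale against 0.139 over all genes tested and 0.108 over genes of at least 5 TPM.

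The comparison of HA-TAZ with control asks which of these genes moved when TAZ was overexpressed. Of the 258 genes, 12 rose and 5 fell, 17 in all, by limma on log2(scaled TPM + 1) with a Benjamini-Hochberg adjusted p under 0.05 over all genes tested. That is 6.59% of them, beside 7.29% of all 22651 genes tested. In the upward direction the share was 4.65% beside 4.67%, and in the downward direction 1.94% beside 2.63%. Among the 12613 genes of at least 5 TPM, 10.9% were called, 7.32% higher and 3.54% lower. No ZNF gene changed by as much as 2-fold: log2 fold changes ran from -0.51 to 0.60. Their median was 0.05, beside -0.03 over all genes tested and 0.04 over genes of at least 5 TPM. Of the 258 genes, 155 were positive (60.1%), beside 46.7% of all genes tested and 55.9% of genes of at least 5 TPM. The protein-coding genes of at least 5 TPM had a median of 0.086, with 65.7% positive and 11.6% called.

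Counts without adjustment lay between all genes and genes of like level in the upward direction. At an unadjusted p under 0.05, 55 ZNF genes were higher and 17 lower, where 16.6% and 14.1% of all genes tested were, so 21.3% and 6.59% of the ZNF genes. Among genes of at least 5 TPM, the level that chose the ZNF genes, 25.2% were higher and 13.8% lower. In scaled TPM, 69 genes were higher in every HA-TAZ library than in any control (26.7%, beside 20.2% of all genes tested and 29.2% of those of at least 5 TPM) and 36 were lower in every one (14%, beside 18.3% and 16%). Together 105 genes did not overlap, 40.7% beside 38.5%. In TPM as deposited, 138 were lower in every HA-TAZ library (53.5%, beside 43.6% and 45.1%) and 12 were higher (4.65%, beside 4.41% and 5.43%), 150 together (58.1%, beside 48%). With 3 libraries against 3, an exact permutation test of a single gene cannot go below 0.1, so the fit across genes was the only test used.

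**Figure D1:**
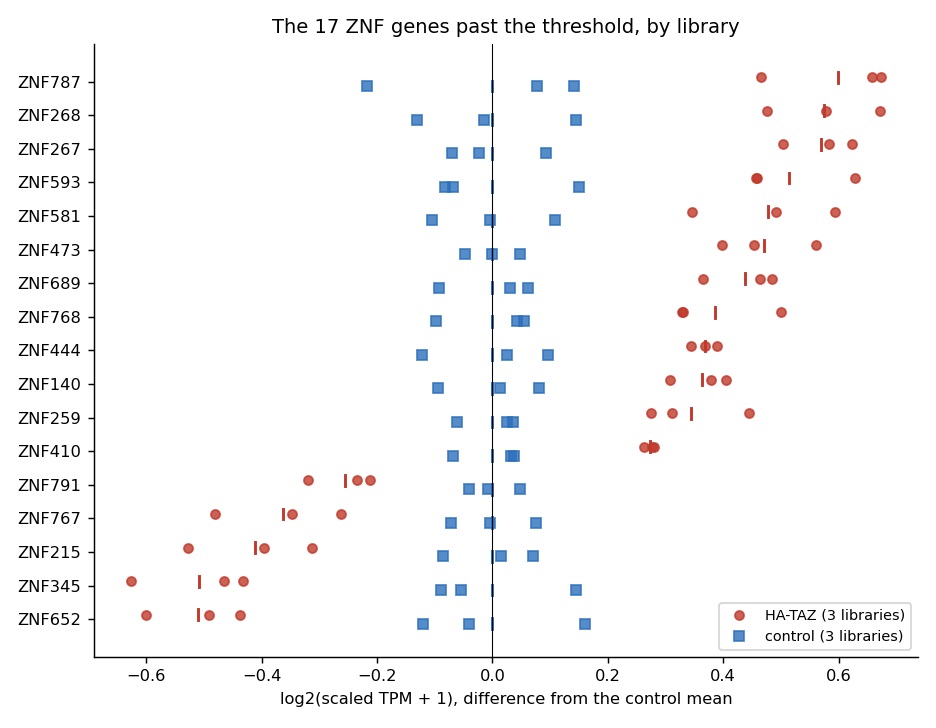
Each row is 1 of the 17 ZNF genes past the threshold; the x axis gives log2(scaled TPM + 1) in each library minus the mean of the 3 control libraries, red circles are HA-TAZ, blue squares control, and vertical ticks are group means. The 2 groups do not overlap in any row, and the differences run from -0.51 in ZNF652 to 0.60 in ZNF787.

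Of the 110 KRAB genes 4 rose and 1 fell. That is 4.55% called, beside 7.29% of all genes tested and 10.9% of genes of at least 5 TPM. ZNF267 had the smallest adjusted p of all ZNF genes. Its scaled TPM was 41.3, 40.1 and 37.9 in HA-TAZ and 25.2, 26.02 and 28.3 in controls a, b and c. The lowest HA-TAZ library was well above the highest control, and ZNF267 rose by 0.57 ± 0.06 (log2, SE; limma adjusted p = 0.013). It was also the most stable call, passing in 3 of the 6 fits that each leave out a library. ZNF268 has 24 fingers. It stood at 17.7, 18.9 and 16.4 scaled TPM in HA-TAZ and at 10.4, 11.4 and 12.8 in the controls, a rise of 0.57 ± 0.09 (limma adjusted p = 0.032). The HA-TAZ values were again all above the controls, but ZNF268 rested on 408 estimated counts summed over its transcripts in the authors' deposited table, beside a median of 1475 per ZNF gene.

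ZNF140, a KRAB repressor with 10 fingers, was measured at 17.7, 16.5 and 17.4 scaled TPM in HA-TAZ and at 13.3, 13.9 and 12.2 in the controls. It rose by 0.36 ± 0.07 (limma adjusted p = 0.039), with no overlap in scaled TPM, although the groups overlapped in TPM as deposited. ZNF689 stood at 7.15, 7.27 and 6.61 in HA-TAZ against 4.54, 5.04 and 5.16, and rose by 0.44 ± 0.08 (limma adjusted p = 0.039). A single KRAB gene fell. ZNF791, with 17 fingers on chromosome 19, had 21.3, 20.01 and 21.6 scaled TPM in HA-TAZ and 26.1, 24.5 and 25.1 in the controls, a fall of 0.26 on the log2 scale (SE 0.05, limma adjusted p = 0.048). All 3 HA-TAZ libraries were below the controls.

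ZNF593, ZNF473 and ZNF259 are grouped here for description after their calls were known. ZNF593, a nuclear protein whose relatives take part in making the large ribosomal subunit, stood at 12.9, 11.3 and 11.3 scaled TPM in HA-TAZ and at 7.55, 7.47 and 8.94 in the controls. It rose by 0.51 ± 0.09 (limma adjusted p = 0.039), and every HA-TAZ value exceeded the highest control. ZNF473, which takes part in processing the ends of histone mRNAs with the U7 particle, had 8.32, 8.69 and 9.43 in HA-TAZ against 5.85, 6.31 and 6.07. Its rise of 0.47 ± 0.07 had an adjusted p of 0.031 by limma, with 18 fingers in its coding sequence; it may hold a divergent KRAB domain that the pattern missed. ZNF259, named ZPR1 in newer annotation and known as a partner of the SMN protein, stood at 34.3, 31.2 and 30.4 against 23.9, 25.6 and 25.4 in the controls. It rose by 0.34 ± 0.06 (limma adjusted p = 0.039), and its coding sequence held no finger of the classical spacing.

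ZNF410 is known for activating CHD4, which encodes a remodeller of the NuRD complex. Its scaled TPM was 23.9, 23.99 and 23.7 in HA-TAZ, a spread of 0.158 (SD), and 20.1, 20.04 and 18.6 in the controls, a rise of 0.27 ± 0.05 (limma adjusted p = 0.039). CHD4 itself stood at 82.6, 87.3 and 79.4 in HA-TAZ and 81.2, 88.6 and 74.8 in the controls, which overlapped, with a log2 difference of 0.03 ± 0.07 (limma adjusted p = 0.81). The rise of ZNF410 depends on the scaling: in TPM as deposited its levels were 20.7, 23.2 and 21.1 against 24.3, 21.9 and 19.7, and the log2 difference was -0.01.

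ZNF444, a SCAN protein with 4 fingers, stood at 13.5, 13.3 and 13.8 scaled TPM in HA-TAZ against 9.36, 11.04 and 10.5 in the controls, a rise of 0.37 ± 0.07 (limma adjusted p = 0.044). ZNF768, which has 10 fingers and is known for binding an old family of interspersed repeats, stood at 15.4, 13.6 and 13.6 against 9.85, 10.95 and 11.05, a rise of 0.39 ± 0.08 (limma adjusted p = 0.0464). In both genes all HA-TAZ libraries were above all controls in scaled TPM. In TPM as deposited the groups overlapped for ZNF444, as they did for ZNF140, ZNF259 and ZNF410, and for no other of the 12. Without scaling the log2 difference was 0.09 for ZNF444 and 0.11 for ZNF768, and neither passed (limma adjusted p = 0.38 and 0.28). Of the 17 calls, 6 passed in TPM as deposited: the 5 genes that fell, and ZNF787.

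ZNF787 and ZNF581 complete the genes that rose. ZNF787 had the largest difference of all 258 genes, with 19.4, 16.9 and 19.6 scaled TPM in HA-TAZ and 10.1, 12.6 and 13.2 in the controls, a rise of 0.60 ± 0.12 (limma adjusted p = 0.0425). ZNF581 stood at 9.15, 8.17 and 9.89 against 5.71, 6.20 and 6.78, a rise of 0.48 ± 0.10 (limma adjusted p = 0.0465). Control a was the lowest library in both. ZNF428 was close to ZNF787 in size, at 14.9, 12.8 and 16.9 against 7.06, 10.9 and 11.01, but its difference of 0.59 ± 0.19 did not pass (limma adjusted p = 0.10).

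Of the 5 genes that fell, 1 matched the KRAB pattern (ZNF791, above), 3 did not, and the pseudogene ZNF767 had no coding sequence. ZNF652, a repressor that works with the corepressor CBFA2T3, stood at 14.1, 15.9 and 15.3 scaled TPM in HA-TAZ and at 24.5, 21.2 and 20.03 in the controls. It fell by 0.51 on the log2 scale (SE 0.09, limma adjusted p = 0.037), the largest fall of the 258 genes, with all HA-TAZ libraries below the controls. ZNF345, with 15 fingers on chromosome 19, had 5.54, 6.48 and 6.30 in HA-TAZ against 10.1, 8.48 and 8.72, a fall of 0.51 (SE 0.10, limma adjusted p = 0.042). It rested on 280 estimated counts in the authors' deposited table.

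ZNF215, an imprinted gene of the chromosome 11 region linked to Beckwith-Wiedemann syndrome, stood at 13.5, 14.4 and 12.2 scaled TPM in HA-TAZ and at 16.999, 19.05 and 18.3 in the controls. It fell by 0.41 (SE 0.08, limma adjusted p = 0.041). ZNF767, a pseudogene on chromosome 7, stood at 15.1, 16.7 and 17.8 against 21.5, 20.4 and 22.7 and fell by 0.36 (SE 0.08, limma adjusted p = 0.0485). Neither gene's groups overlapped, on this scale or in TPM as deposited. ZNF546, a KRAB gene, lay between ZNF345 and ZNF215 in size, with 6.01, 5.40 and 6.25 against 7.34, 8.72 and 9.195, a log2 difference of -0.45 ± 0.10 that did not pass (limma adjusted p = 0.057).

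The calls were fragile. Leaving out a library left 0, 1 or 2 of the 17 calls, and only ZNF267 and ZNF268 were ever among them. In the same fits the calls over all genes went from 1652 to between 117 and 435.

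Lists of ZNF genes by known role were described by their counts. The shares called were 9.09%, 0%, 9.09% and 12.5%, in the order below. Among all genes tested 7.29% were called, and among genes of at least 5 TPM 10.9%. Of 11 general transcription factors, ZNF410 rose and the others did not pass. Within that list ZNF219 stood at 13.2, 12.9 and 12.9 scaled TPM in HA-TAZ and 16.1, 15.4 and 14.7 in the controls, a log2 difference of -0.23 ± 0.06 (limma adjusted p = 0.062), and ZNF281 had 0.22 ± 0.07 (limma adjusted p = 0.091). The list's median was 0.05, the same as over all ZNF genes.

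Of 13 gene IDs in chromatin and SUMO complexes, none passed by limma, and 1 had an unadjusted p under 0.05. That gene was ZNF451, a SUMO ligase, with 38.9, 43.1 and 40.9 scaled TPM against 36.6, 34.2 and 36.4, a difference of 0.19 ± 0.06 (limma adjusted p = 0.087). The list's median was 0.05.

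Of 11 genes for RNA, ribosomes and the spindle, ZNF593 rose, and the median was 0.00. ZNF598, the ubiquitin ligase that marks collided ribosomes, narrowly missed the threshold. It stood at 51.5, 44.2 and 47.7 scaled TPM against 33.8, 37.4 and 39.02, with no overlap, a difference of 0.37 ± 0.08 (limma adjusted p = 0.0502). ZNF346, which binds double-stranded RNA, had -0.27 ± 0.08 (limma adjusted p = 0.086) with 12.3, 10.6 and 12.4 against 14.4, 13.8 and 14.7. ZNF622, a ribosome biogenesis factor, had 0.20 ± 0.07 (limma adjusted p = 0.11).

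Of 8 gene IDs of KRAB repressors known by name, ZNF268 rose and the median was 0.02. ZNF91, the repressor of SVA and L1 elements, was flat within its spread at 13.8, 13.8 and 13.4 scaled TPM in HA-TAZ and 13.7, 13.8 and 13.04 in the controls, a difference of 0.02 ± 0.05 (limma adjusted p = 0.85). ZNF10 had 0.02 ± 0.10 and ZNF274, a repressor of other zinc finger genes, 0.16 ± 0.09.

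The partners through which KRAB proteins repress were also measured. Of 37 co-repressor symbols with 51 gene IDs tested, KDM1A alone passed. That is 1.96% of the IDs, beside 7.29% of all genes tested and 10.9% of genes of at least 5 TPM. KDM1A stood at 57.8, 57.4 and 57.6 scaled TPM in HA-TAZ and 40.995, 47.5 and 43.8 in the controls, a rise of 0.38 ± 0.06 (limma adjusted p = 0.031). TRIM28, the scaffold that KRAB domains bind, stood at 209, 222 and 215 against 207, 220.02 and 192, which overlapped, with a difference of 0.06 ± 0.06 (limma adjusted p = 0.525). SETDB1, the histone methyltransferase that TRIM28 recruits, had 37.9, 36.5 and 33.2 against 39.7, 33.95 and 37.6, a difference of -0.05 ± 0.08 (limma adjusted p = 0.73). The list's median over the 51 gene IDs was 0.07. EHMT2, DAXX, MTA1 and others had several gene IDs, some with identical values, so the list counts them more than once.

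Genes that matched the KRAB pattern lay lower, as a class, than those without a match. The class without a match may hold further KRAB genes, as it does ZNF10. The median log2 fold change was 0.01 over the 110 KRAB genes, with 4 higher and 1 lower. It was 0.09 over the 144 without a match, with 8 higher and 3 lower. The shares called were 4.55% and 7.64%, beside 7.29% of all genes tested and 10.9% of genes of at least 5 TPM. Within each library the median deviation from the gene mean was lower for KRAB genes than for the others by 0.05, 0.02 and 0.03 in the 3 HA-TAZ libraries, and higher by 0.08, 0.02 and 0.01 in controls a, b and c. No test was made of this difference. The 11 SCAN genes had a median of 0.21 with 1 higher, ZNF444 (9.09% called). Genes with 10 or more fingers had the same median, 0.05, as those with 5 to 9 and those with 1 to 4. Zinc finger genes with other names had somewhat higher medians: 0.14 for 24 ZFP, ZSCAN and ZKSCAN genes (3 higher) and 0.12 for 24 ZBTB gene IDs (2 higher, 1 lower). In each of these groups 12.5% were called, near the 10.9% of genes of at least 5 TPM.

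Chromosome and match to the KRAB pattern went together. On chromosome 19 the 68 genes with a KRAB match had a median of 0.01 with 1 call, ZNF791. The 36 without a match had a median of 0.19, with 28 positive. Of these 36, 4 were higher (ZNF473, ZNF787, ZNF444 and ZNF581) and 1 lower (ZNF345). The 36 may include KRAB genes that the pattern missed, as may be the case for ZNF473, so their median is not that of genes without KRAB. On chromosome 16 the 17 genes had a median of 0.24, 15 were positive, and ZNF267, ZNF689 and ZNF768 rose. Chromosome 7 had a median of 0.06 over 22 genes and 1 call, ZNF767. Shares called were 1.47% and 13.9% for the chromosome 19 classes with and without a match, 17.6% for chromosome 16 and 4.55% for chromosome 7. Among all genes tested 7.29% were called, and among genes of at least 5 TPM 10.9%. Positive values made up 77.8% of the chromosome 19 genes without a match and 88.2% of those on chromosome 16. They made up 55.9% of genes of at least 5 TPM and 65.7% of the protein-coding ones.

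**Figure D2:**
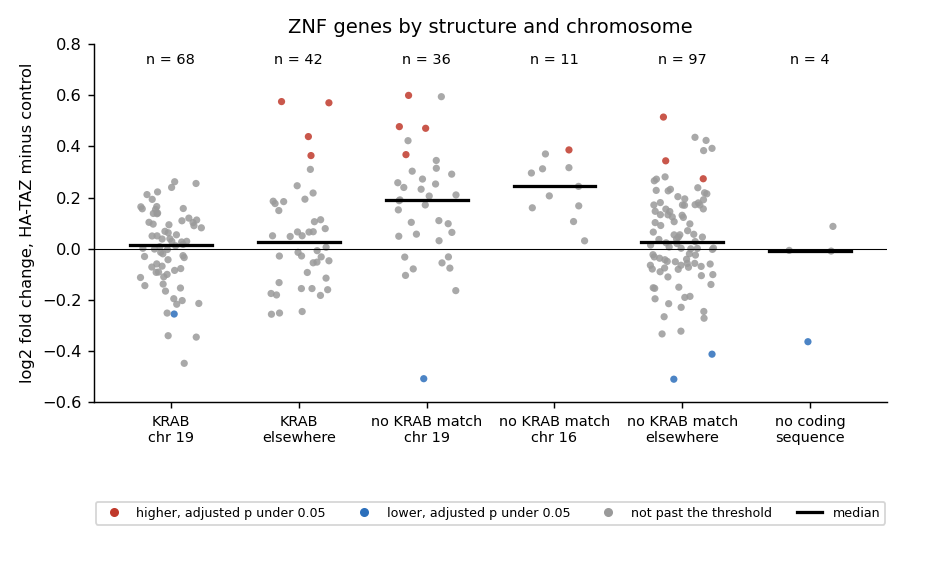
Each point is a ZNF gene placed by log2 fold change (y axis, HA-TAZ minus control) in 6 groups by KRAB match and chromosome; black bars are medians, red and blue mark genes past the threshold. The KRAB genes of chromosome 19 center on 0.01 and the 36 chromosome 19 genes without a KRAB match on 0.19.

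The GC content of the transcripts moved with the fold change. GC content was taken from the longest protein_coding transcript in GENCODE release 29, for 247 ZNF genes and 8695 protein-coding genes of at least 5 TPM, and the comparison was added after values had been seen. Bands of equal gene number (low, middle and high) were set over the protein-coding genes, with bounds at 43.2% and 52.6% GC. The 123 ZNF genes of the low band centered on a log2 fold change of 0.01, with 2 higher and 4 lower, the 72 of the middle band 0.05 with 4 higher, and the 52 of the high band 0.20 with 6 higher. In the high band 44 of 52 were positive. The protein-coding genes gave 0.02, 0.06 and 0.19 in the same bands, with 146 higher and 111 lower of 2899, 247 and 82 of 2898, and 395 and 29 of 2898. Across the 247 genes, which share their libraries, Pearson's r of GC content with log2 fold change was 0.42 and Spearman's rho 0.35, and across the protein-coding genes 0.31 and 0.35. The length of the same transcripts also went with the fold change, shorter ones being higher. Spearman's rho of length was -0.22 across the ZNF genes and -0.32 across the protein-coding genes. No adjustment for length was made.

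Genes matching the KRAB pattern were poorer in GC, with a median of 41.6% against 47.5% for those without a match, and 72 of 106 lay in the low band. In the low band the medians were -0.02 for KRAB and 0.04 for the others. They were 0.08 and 0.05 in the middle band, while the high band held only 3 KRAB genes. On chromosome 19 the low band had -0.01 with KRAB (49 genes) and 0.14 without (12 genes). Its middle band had 0.10 (19 genes) and 0.15 (11 genes). Chromosome 16 members had a median GC content of 58.5%, and all 11 in the high band were positive. When the trend on GC content was removed from each library, the KRAB median became 0.07 and the other median 0.08, and the chromosome 16 median 0.16. On chromosome 19 the medians then became 0.08 with KRAB and 0.17 without. What links GC content or transcript length with the difference between these libraries was not tested.

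Individual calls answered differently. After the same adjustment 13 of the 17 calls were kept, and ZNF215, ZNF791, ZNF444 and ZNF768 no longer passed (limma adjusted p = 0.053, 0.086, 0.20 and 0.074). ZNF267, at 36.5% GC, had 0.64 with an adjusted p of 0.012 by limma. ZNF787, at 70.3% GC, went from 0.60 to 0.38 and still passed (limma adjusted p = 0.022). The adjustment also added 6 genes to the called set: ZNF146, ZNF226, ZNF281, ZNF451, ZNF562 and ZNF775.

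**Figure D3:**
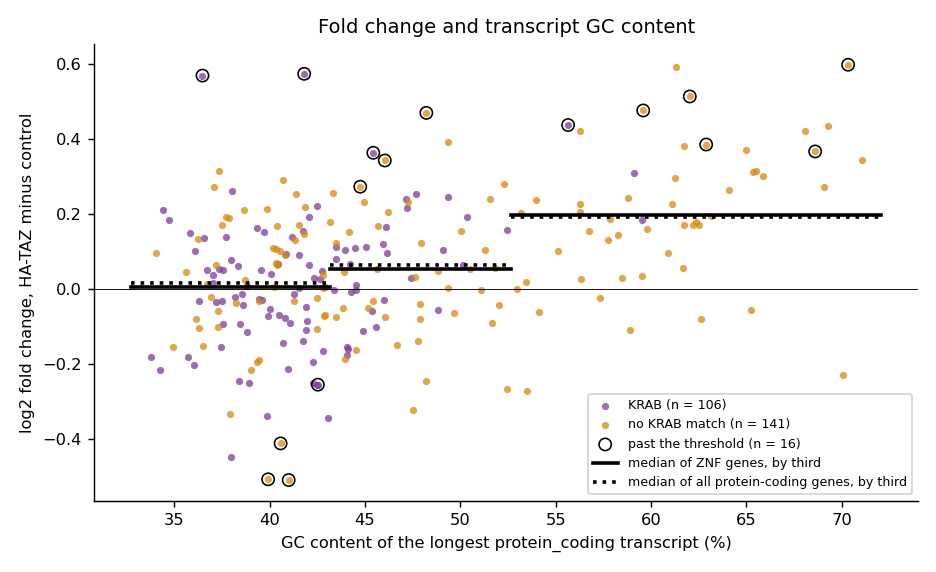
Log2 fold change (y axis, HA-TAZ minus control) against the GC content of the longest protein_coding transcript (x axis, percent) for 247 ZNF genes; purple points match the KRAB pattern, orange points do not, and open circles mark the 16 of these genes past the threshold. Solid lines give the ZNF medians by band (0.01, 0.05 and 0.20), dotted lines those of all protein-coding genes of at least 5 TPM (0.02, 0.06 and 0.19).

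Neighbouring genes were described as groups. Taking genes whose starts lay within 200 kb of the next in GENCODE release 29, 15 groups of at least 4 ZNF genes held 95 of them. On chromosome 16, ZNF48, ZNF768, ZNF688 and ZNF689 had log2 fold changes of 0.30, 0.39, 0.31 and 0.44, all positive, with ZNF768 and ZNF689 called. On chromosome 19, ZNF579, ZNF865, ZNF580 and ZNF581 had 0.30, 0.34, 0.06 and 0.48, with ZNF581 called. The 6 genes from ZNF317 to ZNF562 on chromosome 19 were all positive, from 0.06 to 0.22, with none called by limma. The same held for groups of 4 from ZNF45 to ZNF227 on chromosome 19 (median 0.23), from ZNF213 to ZNF75A on chromosome 16 (0.19) and from ZNF670 to ZNF496 on chromosome 1 (0.16).

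The other 9 groups held values of both signs. At the end of chromosome 12, ZNF605, ZNF26, ZNF84, ZNF140, ZNF10 and ZNF268 had -0.26, -0.03, -0.03, 0.36, 0.02 and 0.57, so that ZNF140 and ZNF268 rose on either side of ZNF10, which did not pass. In the chromosome 19 group from ZNF566 to ZNF383, ZNF345 fell by 0.51 while the other 7 genes ran from -0.03 to 0.31 and none passed. Strand use in the quantification is not stated, and 148 of 252 placed genes overlap a gene on the other strand and 97 a gene on the same strand, so reads of such pairs may not be fully told apart. Closely related KRAB genes share long stretches of finger sequence, which also makes the split of reads between them uncertain. For 5 symbols (ZNF721, ZNF275, ZNF141, ZNF518A and ZNF707) the table holds 2 gene IDs, with identical values for ZNF721, ZNF275 and ZNF141, and none of these was called.

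Transcripts gave a second view. The 258 genes had 2159 transcripts, of which 1665 had statistics in the authors' deposited table, with effects as natural-log differences. A q-value of 0.05 was passed there by 73 of them, from 63 genes. That is 4.38% of the ZNF transcripts, beside 5.68% of all transcripts with statistics in the authors' deposited table. Of these, 58 were higher (3.48%, beside 4.08%) and 15 lower (0.901%, beside 1.6%). Of the 17 called genes, 12 had such a transcript of the same sign, though both analyses use the same 6 libraries.

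In several called genes the transcript with the largest share was coding and passed. For ZNF267, ENST00000300870 held 71.1% of the gene's TPM and had an effect of 0.42 ± 0.07 (natural log, SE) in the authors' deposited table. For ZNF593, ENST00000374266 held 97.1% and had 0.39 ± 0.08. In ZNF345 the coding transcript ENST00000586933 held 69.1% of the TPM and had -0.57 ± 0.16 (q = 0.012) in the authors' deposited table, on 123 estimated counts.

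In ZNF652, ZNF268 and ZNF140 the largest share was not coding. For ZNF652, the nonsense-mediated decay transcript ENST00000508237 held 43.3% of the TPM and had -0.27 ± 0.06, and the coding ENST00000362063 held 33.1% and had -0.38 ± 0.07, both lower in the authors' deposited table. ZNF268 had a retained-intron transcript with 55.4% of its TPM, ENST00000537973, with an effect of 0.46 ± 0.13 (q = 0.012), and a coding transcript with 31.1%, ENST00000500625, with 0.55 ± 0.14 (q = 0.0049), both from the authors' deposited table. In ZNF140, ZNF215, ZNF444, ZNF767 and ZNF791 no single transcript passed a q-value of 0.05 there.

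A few genes split by transcript type. In the authors' deposited table, ZNF638 had a coding transcript at 0.22 ± 0.07 (q = 0.021), a retained-intron transcript at -0.59 ± 0.19 (q = 0.034) and a processed transcript at -0.44 ± 0.11 (q = 0.0019). ZNF451 had coding transcripts at 0.19 and 0.27 and a retained-intron transcript at -0.68 ± 0.21 (q = 0.031). ZNF292 had a coding transcript at 0.28 ± 0.09 (q = 0.046) and a processed transcript at -0.44 ± 0.12 (q = 0.012), all from the authors' deposited table. In ZNF638, ZNF451 and ZNF292 the coding transcripts that passed had positive effects, on the authors' own scaling: the mean deposited TPM of the ZNF638 one was 18.4 in both groups. They held 16.4% of the TPM of ZNF638, 20.6% and 14.5% of ZNF451 and 13.7% of ZNF292. In other genes coding transcripts that passed went either way, such as ZNF146 at 0.23 and ZNF37A at -0.24.

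Summed over all ZNF genes, the shares of TPM by transcript type differed between the groups. Retained-intron transcripts held 10.3%, 10.5% and 10.9% of the summed TPM of ZNF genes in HA-TAZ and 12.1%, 11.8% and 12.2% in the controls. Protein_coding transcripts held 67.5%, 66.8% and 65.6% in HA-TAZ and 64.1%, 64.8% and 63.5% in the controls. Neither share overlapped between the groups. The protein-coding genes of at least 5 TPM moved alike, from 10.1% ± 0.119 (SD, n = 3) of retained-intron TPM in the controls to 8.84% ± 0.197 in HA-TAZ, beside 12.02% ± 0.204 and 10.6% ± 0.303 for the ZNF genes. RNA quality and the share of unspliced RNA were not measured apart from these shares, and their part in the fold changes was not tested.

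**Figure D4:**
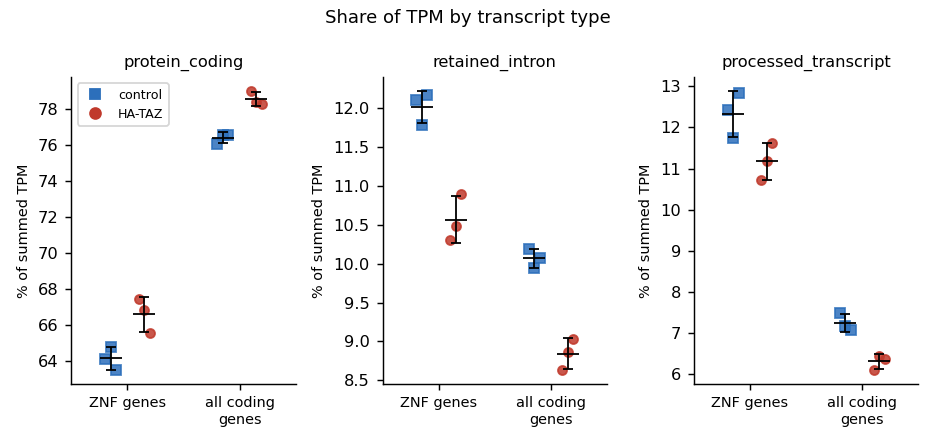
Percent of summed TPM in protein_coding, retained_intron and processed_transcript transcripts, for the ZNF genes and for all protein-coding genes of at least 5 TPM; points are libraries (blue squares control, red circles HA-TAZ), bars mean ± SD of 3, and the y axes do not start at 0. Retained-intron shares are 10.3% to 10.9% in HA-TAZ and 11.8% to 12.2% in control for the ZNF genes.

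Promoters of 220 ZNF genes could be matched in RefSeq (GRCh38.p14), each running from 250 bases before the start to 50 after it. They were richer in GC than all promoters of the table, with medians of 62% against 58.7%, and had 22 CpG pairs against 14. The TEAD motif GGAATG occurred on either strand in 11.8% of them and in 14.03% of all 35116 promoters, and the E-box CACGTG in 7.73% and 7.26%. An interferon-stimulated response element occurred in 1.36% against 3.57%, and an NF-kB motif in 0.909% against 0.558%.

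Of the 15 called genes with a promoter in the table, 1 held the TEAD motif and 1 the E-box, both among those that rose, and these are shown. A match is a description of letters and not a binding site. The TEAD motif lies in the promoter of ZNF581 at chr19:55643399-55643698, plus strand, in capitals as its reverse complement.
ZNF581 promoter: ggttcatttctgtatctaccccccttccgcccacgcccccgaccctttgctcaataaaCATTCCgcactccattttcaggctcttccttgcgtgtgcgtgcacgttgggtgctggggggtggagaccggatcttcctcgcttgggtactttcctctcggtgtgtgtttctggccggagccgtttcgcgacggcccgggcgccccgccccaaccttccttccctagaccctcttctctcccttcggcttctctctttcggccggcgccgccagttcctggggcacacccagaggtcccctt
The E-box lies in the promoter of ZNF593 at chr1:26169658-26169957, plus strand, close to the gene's start, again in capitals.
ZNF593 promoter: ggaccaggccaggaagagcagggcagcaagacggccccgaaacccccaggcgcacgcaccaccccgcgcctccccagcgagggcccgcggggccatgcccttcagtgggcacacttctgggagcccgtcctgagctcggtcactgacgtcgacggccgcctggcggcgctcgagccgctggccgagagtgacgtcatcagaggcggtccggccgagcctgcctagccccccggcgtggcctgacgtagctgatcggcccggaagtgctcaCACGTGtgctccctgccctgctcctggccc

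The direction of the ZNF genes as a whole depended on the scaling, and every count above is relative to it. In TPM as deposited the median over all genes tested was -0.27 and that of the ZNF genes -0.23, with 32 called (12.4%, beside 14.7%), 1 higher and 31 lower (0.388% and 12%, beside 1.15% and 13.5% of all genes tested). With factors from protein-coding genes the ZNF median was -0.02, beside -0.09 over all genes tested. In that fit 6 ZNF genes were higher and 8 lower, and the share called over all genes is not given here. In every fit made per gene ID, those leaving out a library included, the ZNF median lay above that of all genes tested. Against protein-coding genes of at least 5 TPM it lay lower in the fit reported, 0.049 beside 0.086. In all of the fits per gene ID, the median of genes matching the KRAB pattern lay below that of genes without a match.

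**Figure D5:**
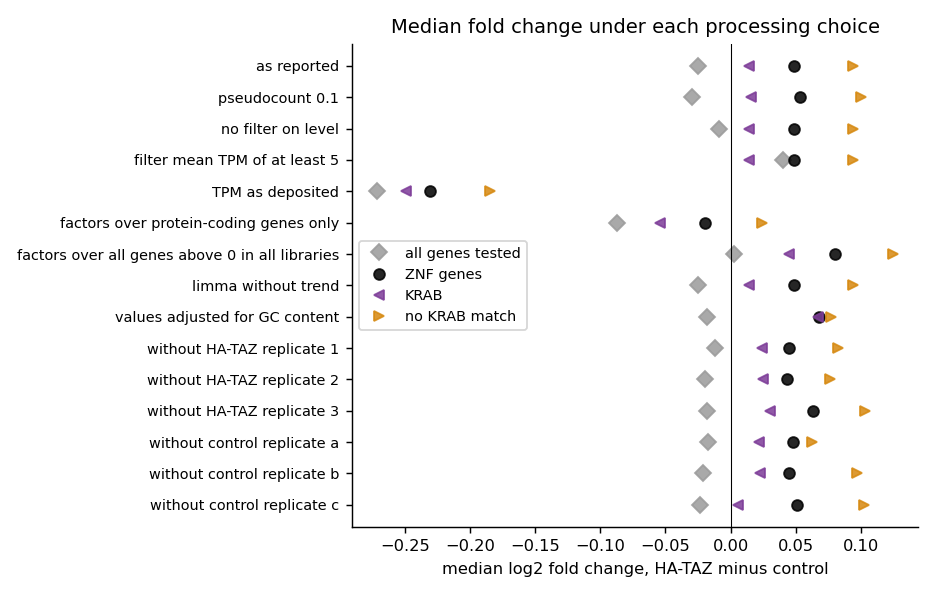
Median log2 fold change (x axis, HA-TAZ minus control) of all genes tested, all ZNF genes, KRAB genes and genes without a KRAB match, under each processing choice (rows). The ZNF median is 0.05 as reported, -0.23 in TPM as deposited and -0.02 with protein-coding factors.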

How the data were processed

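RNA of 6 KMS27 libraries (3 HA-TAZ, 3 control) was sequenced as stranded, ribosome-depleted total RNA, paired-end, per the labels' protocols. The authors deposited TPM per transcript and library, and a second table with p-values, q-values and effects on a natural log scale. Per the submitters' processing notes, kallisto 0.46.0, sleuth 0.30.0 and GRCh37 were used; the annotation release and strand setting are not given in the sources used here. No label names the control columns, which were matched to the wild type samples because no other group remained. Read depth per library is not in these tables: the natural-log mean counts in the authors' deposited table, turned back, gave the estimated counts quoted.

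TPM were summed per gene ID, divided by median-of-ratios factors over 21512 genes tested and above 0 in all libraries, and fitted as log2(value + 1) with limma 3.58.1 (intensity trend, R 4.3.3) over 22651 genes of mean TPM at least 1, with Benjamini-Hochberg adjustment and threshold 0.05. The planned wording took factors over all 33614 genes above 0 in all libraries; the narrower set was adopted after the files were seen, and the planned one, kept as an alternative, called 20 ZNF genes (16 higher, 4 lower) in place of 17. The fit was tested on simulated data. KRAB, SCAN and finger patterns were read from translated GENCODE release 29 coding sequences. Named genes were the 8 calls with the smallest adjusted p in each direction, the 5 most abundant, the 3 largest differences each way and up to 4 of each role list; ZNF444, ZNF768, ZNF581 and the genes named beside groups of neighbours, GC content and transcripts were named after their values were seen. Members and lists were chosen with earlier results of these data known. Plots were drawn with matplotlib 3.10.9; tables were joined with pandas 2.3.3 and numpy 2.4.6 under Python 3.11.15.

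Alternatives covered the pseudocount, the level filter, the scaling, the trend, sums per symbol, each library left out and a stricter q-value; factors over all genes, a wider KRAB pattern and a GC adjustment (lowess per library on GC content, removed from protein-coding genes) were added after seeing the data. The result for 1 marker gene is not reported here.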

Additional observations from a re-analysis of the deposited data

How the results depend on the processing

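The median log2 fold change of the ZNF genes, 0.0491, turned to -0.231 in TPM as deposited and to -0.0197 with factors over protein-coding genes. Over all genes tested it was -0.0252 as reported, -0.271 in TPM as deposited and -0.0876 with protein-coding factors. In the other fits the ZNF median stayed positive. Of the 17 calls (12 higher, 5 lower; 1652 over all genes), TPM as deposited gave 32 (1 higher, 31 lower; 3329), no filter 2 (2 and 0; 691), a filter at 5 TPM 26 (8 lower), limma without trend 4 (4 and 0; 758), protein-coding factors 6 higher and 8 lower, and GC adjustment 3 lower. Calls over all genes are not given here for the filter at 5 TPM, the protein-coding factors and the GC adjustment. Leaving out each library gave 0 to 2 calls (0 to 2 higher, 0 to 0 lower), with 117 to 435 over all genes. Transcripts past the authors' q-value went from 73 at 0.05 to 30 at 0.01. In TPM as deposited the sign turned for ZNF410 (-0.0148), ZNF706 (-0.13), ZNF121 (-0.23), ZNF281 (-0.0642), ZNF451 (-0.10), ZNF516 (-0.0372), ZNF687 (-0.14), ZNF512B (-0.0851), ZNF622 (-0.0760) and ZNF274 (-0.11). ZNF121 was also -0.0104 with protein-coding factors, and ZNF207 became 0.0140 with factors over all genes and 0.0525 with GC adjustment, and ran from -0.0410 to 0.0144 when libraries were left out, positive without HA-TAZ replicate 3 or control a. The cause was not tested; fewer libraries leave fewer degrees of freedom. No paired analysis was possible because the control columns carry a name found in no label and cannot be tied to numbered samples. TPM keep no depth, so no counting error was computed.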
